A study of Homo sapiens with 9 samples.

Results

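The DNA replication machinery was followed here as 53 genes, grouped by the step at which their products act, in HCC827 cells that had lost part of their CBX5 RNA. The members are the rows of the deposited count table whose Ensembl identifiers carry the chosen replication gene symbols in GENCODE release 29. All 53 were found among the 60675 rows, and 52 passed the filter on low counts, which left 13264 genes for testing. The member that did not pass, FEN1, is treated with the Okazaki fragment genes.

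Replication of a chromosome begins with the origin recognition complex, which marks origins and, with CDC6 and CDT1, loads the MCM2-7 helicase as an inactive ring. Kinases and firing factors then add CDC45 and the GINS complex to that ring, which makes the active helicase at the front of the fork. Polymerase alpha-primase starts each new strand, polymerases delta and epsilon extend it on the sliding clamp PCNA, and replication protein A (RPA) covers the exposed single strands. Many of these genes are transcribed in a wave before and during S phase under E2F transcription factors, so their RNA is high in dividing cells.

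HCC827 is an established human lung adenocarcinoma cell line with an activating EGFR mutation, grown in DMEM with serum. CBX5 encodes HP1 alpha, a chromatin protein that binds a repressive histone mark. The 3 groups had 3 libraries each: cells stably expressing the CBX5 hairpin G1, cells stably expressing the CBX5 hairpin G7, and cells stably expressing the non-silencing hairpin NS. All groups therefore carry a hairpin. The labels do not say whether a hairpin group is 1 stable line. The series calls the replicates biological without saying whether separate transductions were made. If they are separate harvests of 1 line, the p-values measure the spread between harvests and not between lines.

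The libraries held between 12701561 and 22372353 counts, of which mitochondrially encoded genes took 13.4% to 16.6% in G1 libraries, 14.4% to 19.8% in G7 libraries and 15.0% to 17.7% in NS libraries. G7 replicate 3 had the highest share and stood apart from its group: the chi-square per degree of freedom between its counts and those of the other G7 libraries was 22.6 and 17.9, against 1.46 to 8.87 for all other replicate pairs. Levels are given as CPM, which are counts relative to the library's total after TMM scaling, a correction for differences in composition. CBX5 had 142, 142 and 143 CPM in G1 libraries, 204, 204 and 201 CPM in G7 libraries, and 369.7, 377 and 361 CPM in NS libraries. Its log2 change against NS was -1.38 ± 0.04 for G1 and -0.86 ± 0.04 for G7 (± standard error, SE, for all log2 changes), so the target fell under both hairpins and G1 left less CBX5 RNA. All 7 epithelial marker genes passed the filter, and their summed levels were 13972 to 14179 CPM in G1 libraries, 11629 to 12349 CPM in G7 libraries and 9810 to 10808 CPM in NS libraries. Of 5 lung adenocarcinoma markers, NKX2-1, NAPSA and SFTA3 were listed at 0 in every library, which in this table cannot be read as no expression, and EGFR gave nearly all of the sum. Summed markers of leukocytes stayed at or under 1.49 CPM and those of neuroendocrine cells at or under 1.24 CPM in every library, with CD68 and INSM1 at 0. These zeros carry the same limit, and 1 gene of each of these lists passed the filter. Epithelial sums did not overlap between the 3 groups. Fibroblast markers, of which 1 passed the filter, summed to 13.2 to 15.9 CPM over the libraries, with LUM at 0 under the same limit. Endothelial markers summed to 71.2 to 92.8 CPM, their sum being lower in G1 than in both other groups. The part of these marker differences in the results was not tested.

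Promoter windows of 5 members whose RNA changed to different extents are printed here. Their sequences come from RefSeq (GRCh38.p14), which gave windows for 45 of the 53 members. A window holds 300 bases, 250 before and 50 after a transcription start. Each of the 5 is printed from its own strand, with capitals marking exact matches to 2 E2F-type motifs, TTTNNCGC and TTCCCGC, on either strand. All 5 hold a match, while 13 tested members had windows without one. Matches may overlap, and a run may match both motifs. MCM6 and GINS2 are shown as strong rises, CLSPN as the member that most separated the hairpins, and CDT1 and RFC1 as members with matches but small or uncalled differences.
MCM6 (chr2:135876394-135876693, minus strand): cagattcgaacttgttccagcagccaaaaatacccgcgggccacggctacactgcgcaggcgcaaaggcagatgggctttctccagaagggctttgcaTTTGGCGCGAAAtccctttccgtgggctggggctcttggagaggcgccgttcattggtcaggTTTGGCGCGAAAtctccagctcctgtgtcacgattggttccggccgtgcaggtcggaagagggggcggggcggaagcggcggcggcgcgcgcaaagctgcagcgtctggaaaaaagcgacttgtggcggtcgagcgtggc
GINS2 (chr16:85688905-85689204, minus strand): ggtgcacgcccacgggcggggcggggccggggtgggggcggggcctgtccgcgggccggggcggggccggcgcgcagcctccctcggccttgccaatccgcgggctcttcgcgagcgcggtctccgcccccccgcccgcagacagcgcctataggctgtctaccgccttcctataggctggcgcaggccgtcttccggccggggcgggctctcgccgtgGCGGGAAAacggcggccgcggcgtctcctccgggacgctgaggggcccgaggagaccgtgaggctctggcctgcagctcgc
CLSPN (chr1:35769929-35770228, minus strand): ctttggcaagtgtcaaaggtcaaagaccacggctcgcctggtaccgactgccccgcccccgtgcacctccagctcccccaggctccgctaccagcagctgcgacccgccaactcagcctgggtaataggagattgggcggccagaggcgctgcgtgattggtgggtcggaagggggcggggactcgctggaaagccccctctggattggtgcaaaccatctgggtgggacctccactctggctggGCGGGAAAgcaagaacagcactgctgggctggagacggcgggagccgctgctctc
CDT1 (chr16:88803539-88803838, plus strand): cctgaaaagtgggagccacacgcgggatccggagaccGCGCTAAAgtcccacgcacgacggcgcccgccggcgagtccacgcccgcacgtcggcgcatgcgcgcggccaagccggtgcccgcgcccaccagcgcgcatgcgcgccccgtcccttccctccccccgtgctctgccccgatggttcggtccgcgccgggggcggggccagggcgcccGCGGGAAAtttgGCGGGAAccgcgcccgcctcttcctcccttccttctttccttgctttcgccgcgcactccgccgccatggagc
RFC1 (chr4:39366313-39366612, minus strand): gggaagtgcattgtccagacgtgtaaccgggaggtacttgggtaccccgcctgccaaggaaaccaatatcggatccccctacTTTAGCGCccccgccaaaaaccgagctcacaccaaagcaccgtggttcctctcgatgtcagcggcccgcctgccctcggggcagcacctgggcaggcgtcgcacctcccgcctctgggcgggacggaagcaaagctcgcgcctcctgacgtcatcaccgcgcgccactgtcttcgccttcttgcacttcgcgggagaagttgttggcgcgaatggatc

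An E2F-type match lay in 33 of the 57 member windows (57.9%), against 2248 of the 14163 windows of tested genes (15.9%) and 4017 of all 35116 windows (11.4%). The MCM6 window holds 2 separate runs in which matches on both strands overlap, while GINS2 and CLSPN each hold 1 run close to the start. CCAAT, the box bound by NF-Y, was present in 31 member windows (54.4%), against 34.1% of windows of tested genes. TTTGAA, the CHR element of genes that peak late in the cell cycle, was present in 1 member window (1.75%), that of DBF4, against 10.5%. Tested members with an E2F-type match numbered 31 and had a median log2 change of 0.92 with G1 (range 0.06 to 1.70). The 13 tested members whose windows held none had a median of 0.74 (range 0.12 to 1.61), so the ranges overlapped almost wholly. MCM10 and CDC45 rose strongly without an exact match to either motif in their windows, and RFC1 has a match and was not called. Near matches were not counted, such as TTTGGCGG in the MCM10 window and in a CDC45 window. The matches counted here are letter matches and not measured binding sites. DNA2, GINS4, MCM4, MCM5, POLD3, RECQL4, RPA2 and RPA3 had no window in the table.

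With G1, 50 of the 52 tested members rose against NS and none fell, while ORC4 and RFC1 were not called (edgeR quasi-likelihood test, Benjamini-Hochberg adjusted p under 0.05 over all tested genes). Across all tested genes 30.4% were called higher and 28.7% lower in the same comparison. No member was lower at an unadjusted p under 0.05 by edgeR either, a threshold that 8381 of all 13264 tested genes passed, both directions together. DESeq2 called 0 members lower and 48 higher. Of all 13264 tested genes DESeq2 called 3251 lower and 3680 higher. The members' median log2 change was 0.87, running over 0.06 to 1.70, where the median of all tested genes was -0.01. A change beyond 1.5-fold was called upward for 32 members (edgeR glmTreat), against 4.06% of all genes, and 20 members had a log2 change over 1, against 2.23%. In 51 members every G1 library lay above every NS library, RFC1 being the one exception, where 32.5% of all tested genes showed that separation. Under upper quartile scaling, which shifts the median of all genes by -0.09, the shares of all genes called were 23.1% higher and 36.3% lower, and 48 members were still called higher.

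With G7, which left more CBX5 RNA, 40 of the 52 tested members rose against NS and none fell, against 13.1% of all tested genes called higher and 9.64% lower. Their median log2 change was 0.38 (range -0.14 to 0.75), where that of all genes was 0.01. No member passed the test for a change beyond 1.5-fold (edgeR glmTreat). At an unadjusted p under 0.05 that test gave 5 members, a threshold at which the share over all genes was not computed. DESeq2 gave 0 members after adjustment. The adjusted edgeR share over all genes was itself small, at 0.0377% called upward. At an unadjusted p under 0.05, 1 member, ORC4, was lower with G7 by edgeR. Of all 13264 tested genes 4595 passed that threshold, both directions together, and the share lower was not computed. DESeq2 called 0 members lower and 38 higher after adjustment. Of all 13264 tested genes DESeq2 called 975 lower and 1397 higher with G7. Under upper quartile scaling the shares of all genes called with G7 were 10.5% higher and 12.1% lower, and 39 members were called higher. The 12 members not called were ORC2, ORC3, ORC4, ORC5, GINS4, PRIM1, PRIM2, POLD1, RFC1, RPA2, RPA3 and TIPIN. All 3 G7 libraries lay above all 3 NS libraries for 43 members, against 19.3% of all genes, and below them for ORC4 alone, against 15.9%.

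Set directly against each other, G1 cells had higher levels than G7 cells for 46 of the 52 members and lower levels for none, against 23.3% of all tested genes called higher and 21.6% lower. No member was lower at an unadjusted p under 0.05 by edgeR, a threshold that 6878 of all 13264 tested genes passed, both directions together. DESeq2 called 0 members lower and 45 higher. Of all 13264 tested genes DESeq2 called 2223 lower and 2786 higher. The members' median log2 difference was 0.50 (range -0.04 to 1.19), where that of all genes was -0.01. ORC2, ORC5, CDT1, GINS4, PRIM1 and RFC1 were not called. Every G1 library lay above every G7 library for 48 members, against 27% of all genes. Under upper quartile scaling the shares of all genes called were 17.7% higher and 28.3% lower, and 45 members were called higher. A difference beyond 1.5-fold was called upward for 11 members, against 130 of 13264 tested genes (0.98%). The members numbered 7 under upper quartile scaling, 6 by DESeq2, 7 without G1 replicate 2 and 8 without G7 replicate 3. All genes called upward in those settings numbered 96 of 13264, 70 of 13264, 108 of 13464 and 122 of 13455. The G1 and G7 comparisons with NS share the NS libraries, so their values are given side by side below and are not counted as independent. In bulk RNA, more cells in S phase and more replication RNA per cell cannot be told apart.

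**Figure D1:**
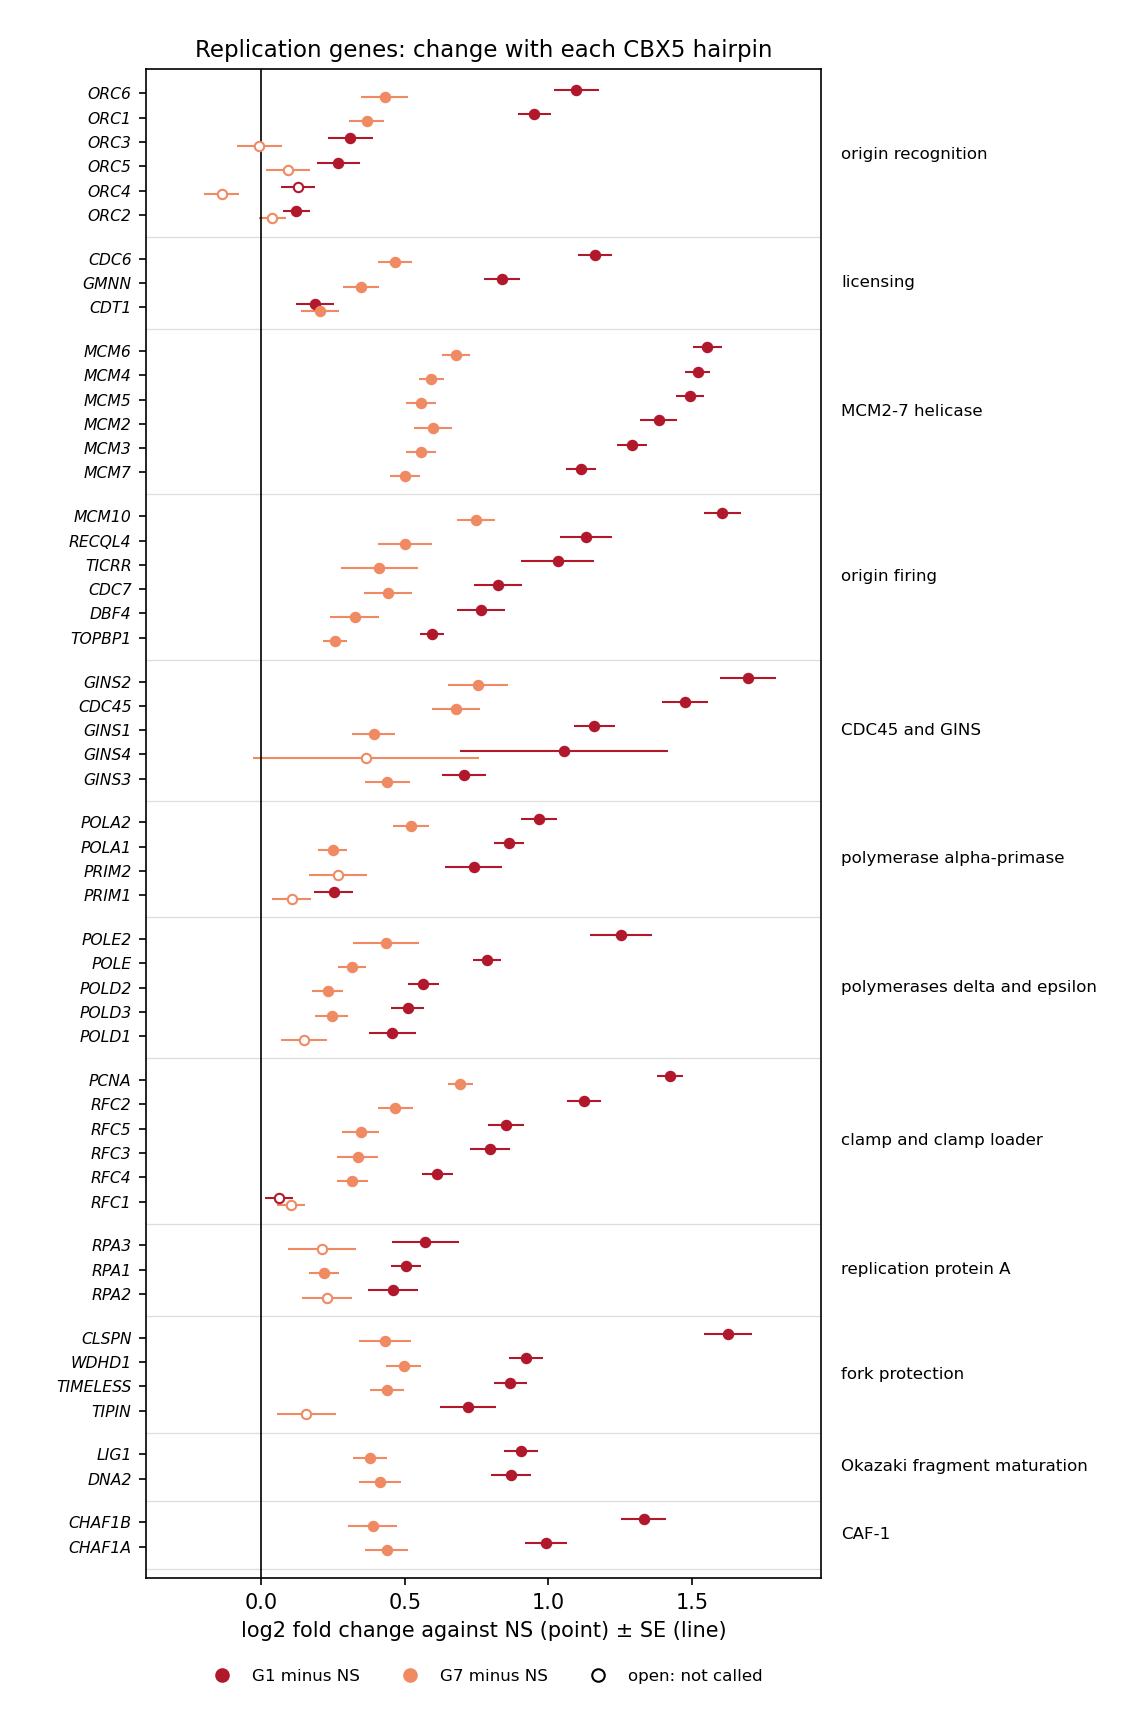
Log2 fold change against NS of the 52 tested members (points, with SE as lines), grouped by step, for G1 (dark red) and G7 (orange); open points were not called at an adjusted p under 0.05. The G1 points reach 1.70 at GINS2 and the G7 points 0.75, and the members nearest 0 with G1 are RFC1, ORC2 and ORC4.

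The summed level of every step was higher in each G1 library than in any NS library. All members together summed to 3786, 3819 and 3765 CPM in G1 libraries, 2679, 2694 and 2624 CPM in G7 libraries, and 2111, 2084 and 2056 CPM in NS libraries. The 3 groups did not overlap, and the gaps between them were far wider than the spread within them. Relative to its mean, RPA was the step whose G1 and G7 libraries spread most, with a sum of 282.7 ± 18.5 CPM in G1 libraries, 231.1 ± 20.6 CPM in G7 libraries and 198.6 ± 6.9 CPM in NS libraries (mean ± SD, n = 3). Different genes were compared per kilobase of exon, merged over the annotated transcripts. That order is approximate, since the transcripts expressed were not measured and overlapping or duplicated genes may have lost reads. On this scale PCNA had the highest value of the members, at 239.6 CPM per kb in G1, 144.5 CPM per kb in G7 and 89.3 CPM per kb in NS. RFC1, RPA1, MCM7, RFC4 and POLD2 followed in NS cells, at 46.6, 33.5, 29.9, 26.9 and 25.3 CPM per kb. At the low end in NS cells stood CLSPN at 2.23, GINS2 at 2.004, TICRR at 0.569 and GINS4 at 0.1003 CPM per kb.

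**Figure D2:**
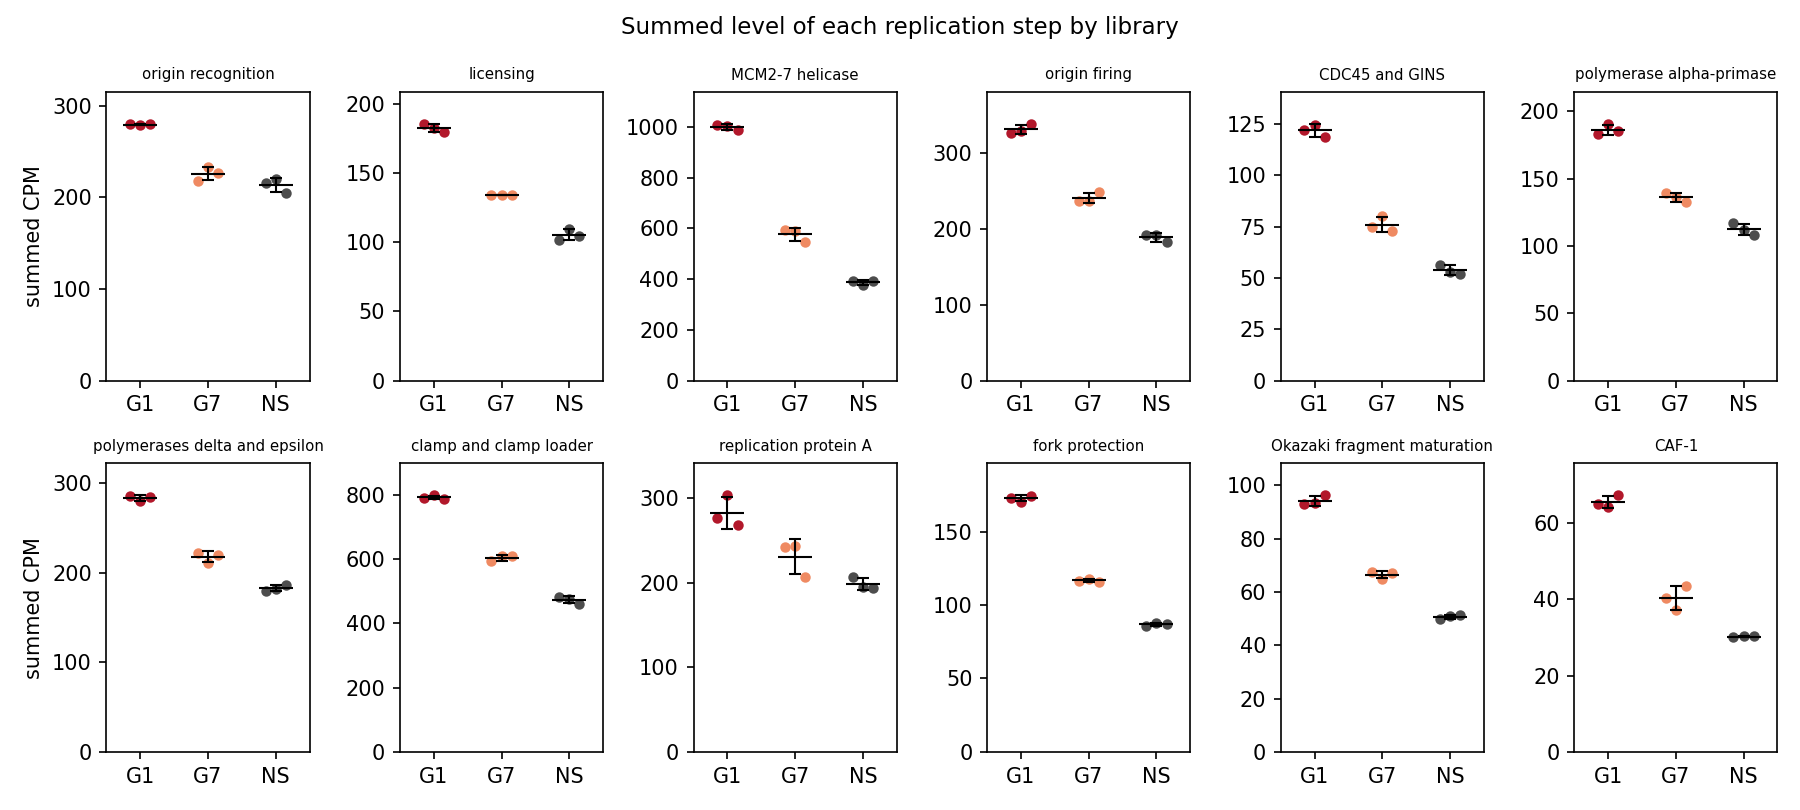
Summed TMM-scaled CPM of the members of each step in each library (points) with the mean and SD of each group (bars), for G1, G7 and NS. The MCM2-7 panel shows 999.8 ± 11.6 CPM in G1, 577.1 ± 26.2 CPM in G7 and 387.7 ± 10.8 CPM in NS, and only origin recognition and RPA show G7 points near or among the NS points.

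Of all tested genes 30.4% were called higher with G1, 13.1% with G7 and 23.3% for G1 minus G7. These shares belong beside the counts of each step below. Among the origin recognition genes, 5 of 6 rose with G1 (median log2 change 0.29) and 2 of 6 with G7 (median 0.07). The 2 that rose with both were ORC1 and ORC6. ORC1, the subunit that comes and goes with the cell cycle in human cells, rose by 0.95 ± 0.06 with G1 and by 0.37 ± 0.06 with G7. ORC6, the smallest subunit and the most loosely bound, had 30.7, 33.1 and 28.5 CPM in G1 libraries, 18.6, 20.99 and 18.9 CPM in G7 libraries, and 14.2, 14.1 and 14.9 CPM in NS libraries. The 3 groups of ORC6 values did not overlap, and the change was 1.10 ± 0.08 with G1 and 0.43 ± 0.08 with G7. ORC2, ORC3, ORC4 and ORC5 form the core of the complex together with ORC1. ORC2 had 77.5, 77.9 and 77.1 CPM in G1 libraries, 72.5, 73.1 and 73.8 CPM in G7 libraries, and 72.6, 73.6 and 67.6 CPM in NS libraries. Its G1 libraries lay just above the NS libraries and its G7 libraries among them, with a rise of 0.12 ± 0.05 with G1 (edgeR adjusted p = 0.0313). That call was lost under upper quartile scaling (0.04) and by DESeq2 (adjusted p = 0.0685), and when NS replicate 3 or any G1 replicate was left out. ORC5 rose by 0.27 ± 0.08 with G1.

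ORC3 and ORC4 were the members whose point values with the 2 hairpins had opposite signs. ORC3 had 47.6, 47.6 and 55.1 CPM in G1 libraries, 35.7, 43.3 and 41.7 CPM in G7 libraries, and 40.2, 43.4 and 37.6 CPM in NS libraries, so that the G7 and NS libraries overlapped and the G1 libraries lay above both. It rose by 0.31 ± 0.08 with G1, and its G7 value was -0.01 ± 0.08 (edgeR adjusted p = 0.965). ORC4, an ATPase-fold subunit like ORC1 and ORC5, had 48.6, 46.2 and 42.8 CPM in G1 libraries, 37.8, 40.1 and 36.9 CPM in G7 libraries, and 42.2, 42.7 and 41.2 CPM in NS libraries. The G1 libraries of ORC4 were the highest and the G7 libraries the lowest, with no overlap between groups, although neither hairpin differed from NS past the threshold. Its log2 value was 0.13 ± 0.06 with G1 (edgeR adjusted p = 0.0719) and -0.14 ± 0.06 with G7 (edgeR adjusted p = 0.107). The difference between the hairpins was 0.27 ± 0.06 for ORC4 and 0.32 ± 0.08 for ORC3, and both were called. The G1 value of ORC4 was called without G1 replicate 3 (0.18, edgeR adjusted p = 0.0261) and, narrowly, without G7 replicate 3 (0.13, edgeR adjusted p = 0.0499).

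All 6 MCM2-7 subunits rose with both hairpins and all 6 were higher with G1 than with G7. The ring they form encircles DNA and is the motor of the replicative helicase. MCM6 showed the largest rise and had 163, 162 and 166 CPM in G1 libraries, 91.5, 91.3 and 84.3 CPM in G7 libraries, and 58.7, 53.9 and 54.4 CPM in NS libraries. The values of the 3 groups were far apart, at 1.55 ± 0.05 with G1 and 0.68 ± 0.05 with G7. MCM7 showed the smallest rise of the 6, with 239.9, 241 and 228 CPM in G1 libraries, 158, 163 and 144 CPM in G7 libraries, and 112, 103 and 113 CPM in NS libraries. Its groups did not overlap either, and it rose by 1.11 ± 0.05 with G1 and 0.50 ± 0.05 with G7. The other subunits lay between, with G1 rises of 1.38 for MCM2, 1.29 for MCM3, 1.52 for MCM4 and 1.49 for MCM5, and G7 rises of 0.56 to 0.60. Of the exon bases of MCM2, 23.6% overlap the opposite-strand genes AC023593.1 and TPRA1, and reads of these genes cannot be told apart if the counting ignored strand, a setting not given in the sources used here.

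**Figure D3:**
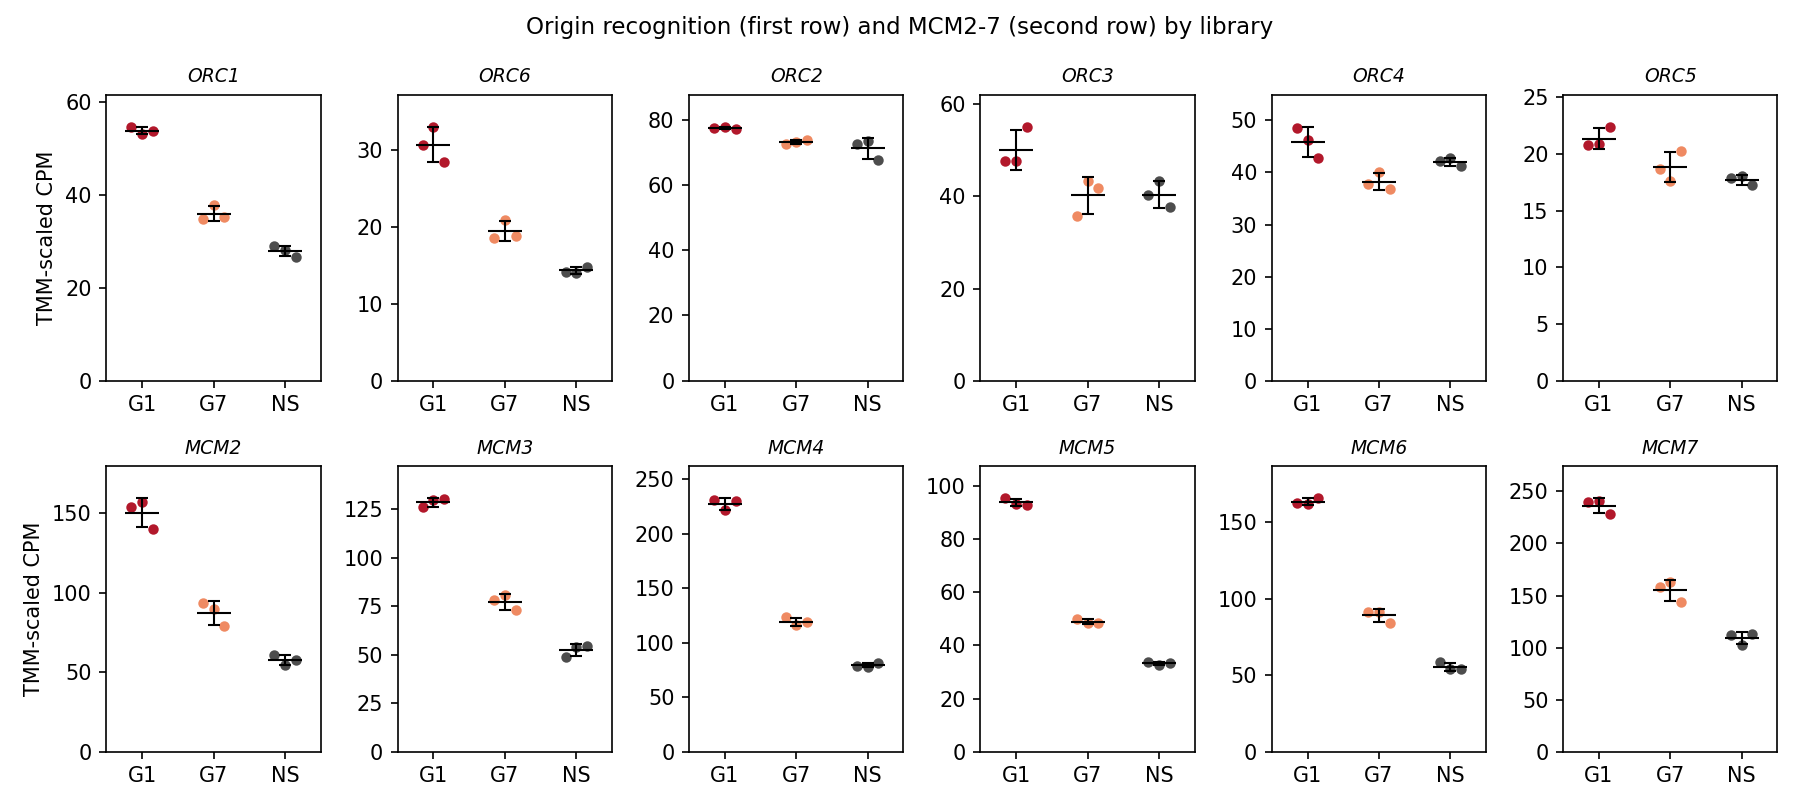
TMM-scaled CPM of the 6 origin recognition genes (first row) and the 6 MCM2-7 genes (second row) in each library (points), with the mean and SD of each group (bars), for G1, G7 and NS. The MCM2-7 panels descend without overlap across G1, G7 and NS, while ORC2, ORC3, ORC4 and ORC5 show smaller differences, with overlap of G7 and NS in ORC2, ORC3 and ORC5.

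Licensing, the loading of that helicase, uses CDC6 and CDT1 and is held back by geminin (GMNN). All 3 genes rose with both hairpins, with a median log2 change of 0.84 with G1 and 0.35 with G7, and CDT1 had the smallest change of the 3. CDC6, the ATPase that recruits the helicase to ORC, had 87.5, 87.6 and 85.6 CPM in G1 libraries, 51.4, 56.1 and 53.6 CPM in G7 libraries, and 35.8, 42.2 and 38.3 CPM in NS libraries. Its groups did not overlap, and it rose by 1.16 ± 0.06 with G1 and 0.47 ± 0.06 with G7. CDT1, the chaperone that brings the MCM ring, had 44.1, 39.05 and 41.4 CPM in G1 libraries, 44.8, 40.05 and 41.04 CPM in G7 libraries, and 34.9, 35.6 and 38.7 CPM in NS libraries. Its G1 and G7 libraries overlapped each other and all lay above the NS libraries. The CDT1 change was 0.19 ± 0.07 with G1 (edgeR adjusted p = 0.0219) and 0.20 ± 0.07 with G7 (edgeR adjusted p = 0.0299), and the hairpins differed by -0.02 ± 0.06 (edgeR adjusted p = 0.832). Both calls were lost under upper quartile scaling, at 0.10 with G1 and 0.18 with G7, and without NS replicate 1 or NS replicate 2; the G1 call was also lost without G1 replicate 1, and the G7 call without G1 or G7 replicate 1 and by DESeq2. GMNN, the inhibitor that binds CDT1, rose by 0.84 ± 0.06 with G1 and by 0.35 ± 0.06 with G7. The log2 ratio of CDT1 to GMNN was -0.38 ± 0.12 in G1 libraries, 0.13 ± 0.11 in G7 libraries and 0.27 ± 0.19 in NS libraries (SD, n = 3), with G1 below both other groups and G7 overlapping NS.

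The origin firing factors act on the loaded ring, and all 6 rose with both hairpins, by a median of 0.93 with G1 and 0.43 with G7. MCM10, a scaffold needed for the paired helicases of an origin to separate and start unwinding, had 49.97, 52.9 and 53.4 CPM in G1 libraries, 29.2, 27.2 and 29.6 CPM in G7 libraries, and 17.98, 16.8 and 16.6 CPM in NS libraries. Its groups were far apart, and it rose by 1.61 ± 0.06 with G1 and 0.75 ± 0.07 with G7. TOPBP1, a scaffold of firing and of checkpoint signalling, had 167, 164 and 172 CPM in G1 libraries, 131, 131 and 137 CPM in G7 libraries, and 112, 112 and 109 CPM in NS libraries and showed the smallest rise of the step. That rise was 0.60 ± 0.04 with G1 and 0.26 ± 0.04 with G7, again with no overlap between groups. The kinase subunit CDC7 rose by 0.82 with G1 and 0.44 with G7, and its activator DBF4 by 0.76 with G1 and 0.33 with G7. RECQL4 and TICRR help to bring CDC45 and GINS to origins; RECQL4 rose by 1.13 with G1 and 0.50 with G7, and TICRR by 1.03 with G1 and 0.41 with G7. The G7 call of TICRR was lost by DESeq2 (edgeR adjusted p = 0.0338, DESeq2 adjusted p = 0.102), with only the 2 groups in the fit, and without NS replicate 1 or 3 or G7 replicate 1 or 2. The G7 call of DBF4 was lost without NS replicate 3 (0.22, edgeR adjusted p = 0.0683).

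CDC45 and the 4 GINS subunits complete the active helicase, and all 5 rose with G1 (median 1.16) and 4 with G7 (median 0.44). GINS2 had the largest log2 change of all members with G1 and had 17.1, 18.1 and 16.8 CPM in G1 libraries, 9.59, 9.13 and 8.43 CPM in G7 libraries, and 5.52, 5.08 and 5.47 CPM in NS libraries. It rose by 1.70 ± 0.10 with G1 and 0.75 ± 0.11 with G7, and its groups did not overlap. GINS3 had the smallest G1 change of the step, with 23.4, 22.2 and 23.8 CPM in G1 libraries, 19.1, 19.6 and 18.96 CPM in G7 libraries, and 14.3, 15.3 and 13.03 CPM in NS libraries, and it rose by 0.71 ± 0.08 with G1 and 0.44 ± 0.08 with G7. CDC45 rose by 1.48 with G1 and 0.68 with G7, and GINS1 by 1.16 with G1 and 0.39 with G7. GINS4 was barely sampled, with 19, 23 and 16 counts in G1 libraries, 10, 19 and 12 counts in G7 libraries, and 10, 6 and 8 counts in NS libraries. Its G1 rise of 1.06 ± 0.36 (edgeR adjusted p = 0.0181) was lost by DESeq2 (adjusted p = 0.0523) and without NS replicate 2, NS replicate 3 or G1 replicate 2. The G7 and NS libraries of GINS4 overlapped, and 23.6% of its exon bases overlap opposite-strand genes. For GINS3 that overlap was 10.9%.

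Polymerase alpha-primase lays down the RNA-DNA primers, and its 4 genes rose with G1 (median 0.80), while POLA1 and POLA2 rose with G7. POLA1, the catalytic polymerase subunit, rose by 0.86 with G1 and 0.25 with G7. POLA2, the accessory subunit, had 46.9, 48.7 and 46.98 CPM in G1 libraries, 35.5, 34.4 and 34.7 CPM in G7 libraries, and 26.3, 22.7 and 24.1 CPM in NS libraries and rose by 0.97 ± 0.06 with G1 and 0.52 ± 0.06 with G7. PRIM1, the catalytic primase, had 37.7, 33.7 and 36.5 CPM in G1 libraries, 33.04, 33.96 and 30.5 CPM in G7 libraries, and 31.1, 31.3 and 28.2 CPM in NS libraries. Its G7 libraries overlapped those of both other groups, and it rose by 0.25 ± 0.07 with G1 (edgeR adjusted p = 0.00361), the smallest change of the step. Its partner PRIM2 rose by 0.74 ± 0.10 with G1 and had 0.27 ± 0.10 with G7 (edgeR adjusted p = 0.0664). The G7 value of PRIM2 was called without the filter on low counts (adjusted p = 0.0292), and without G1 replicate 2, G1 replicate 3 or G7 replicate 3, for which the edgeR adjusted p ran from 0.0206 to 0.0449. The same-strand annotation AP000944.2 overlaps 35.1% of the exon bases of POLA2, and AC117378.1 and NACA together overlap 16.2% of those of PRIM1, where a counter that drops ambiguous reads loses some.

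Polymerases delta and epsilon copy the lagging and leading strands, and all 5 of their genes here rose with G1 (median 0.56) and 4 with G7 (median 0.25). POLE2, the accessory subunit of polymerase epsilon, had 14.3, 14.8 and 14.8 CPM in G1 libraries, 8.76, 6.89 and 9.04 CPM in G7 libraries, and 6.35, 6.11 and 6.01 CPM in NS libraries. It rose by 1.25 ± 0.11 with G1 and 0.44 ± 0.12 with G7, with the 3 groups apart. POLD1, the catalytic subunit of polymerase delta, had 34.97, 39.8 and 35.6 CPM in G1 libraries, 32.5, 29.5 and 27.3 CPM in G7 libraries, and 26.5, 24.5 and 29.3 CPM in NS libraries. The G7 and NS libraries of POLD1 overlapped, and it rose by 0.46 ± 0.08 with G1, against a G7 value of 0.15 ± 0.08 (edgeR adjusted p = 0.205). POLE, the catalytic subunit of polymerase epsilon, rose by 0.79 with G1 and 0.32 with G7, and the delta subunits POLD2 and POLD3 by 0.51 to 0.56 with G1 and 0.23 to 0.25 with G7.

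The sliding clamp and its loader held both one of the largest G1 changes of the module, in PCNA, and the smallest, in RFC1. PCNA, the ring that holds polymerases on DNA, had 354, 359.8 and 344 CPM in G1 libraries, 215, 218 and 205 CPM in G7 libraries, and 135, 125 and 134 CPM in NS libraries. It rose by 1.42 ± 0.04 with G1 and 0.69 ± 0.04 with G7, with wide gaps between the groups. RFC1, the large subunit of the clamp loader, had 236, 233 and 245 CPM in G1 libraries, 231, 242 and 261 CPM in G7 libraries, and 229.8, 237 and 217 CPM in NS libraries. All 3 groups overlapped, and its log2 values were 0.06 ± 0.05 with G1 (edgeR adjusted p = 0.277) and 0.10 ± 0.05 with G7 (edgeR adjusted p = 0.139), and its G1 value was -0.023 under upper quartile scaling. The small subunits RFC2, RFC3, RFC4 and RFC5, which the clamp loader shares with alternative loaders, all rose, by 0.61 (RFC4) to 1.12 (RFC2) with G1 and 0.32 to 0.47 with G7. The log2 ratio of RFC3 to RFC1 was -2.51 ± 0.15 in G1 libraries, -3.00 ± 0.13 in G7 libraries and -3.23 ± 0.06 in NS libraries (SD, n = 3), without overlap. PCNA, RFC3 and RFC5 have named pseudogenes, with which they may share reads, as do DBF4, POLD2, RPA2 and FEN1 in other steps. Of the exon bases of RFC5, 10.6% overlap opposite-strand genes.

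**Figure D4:**
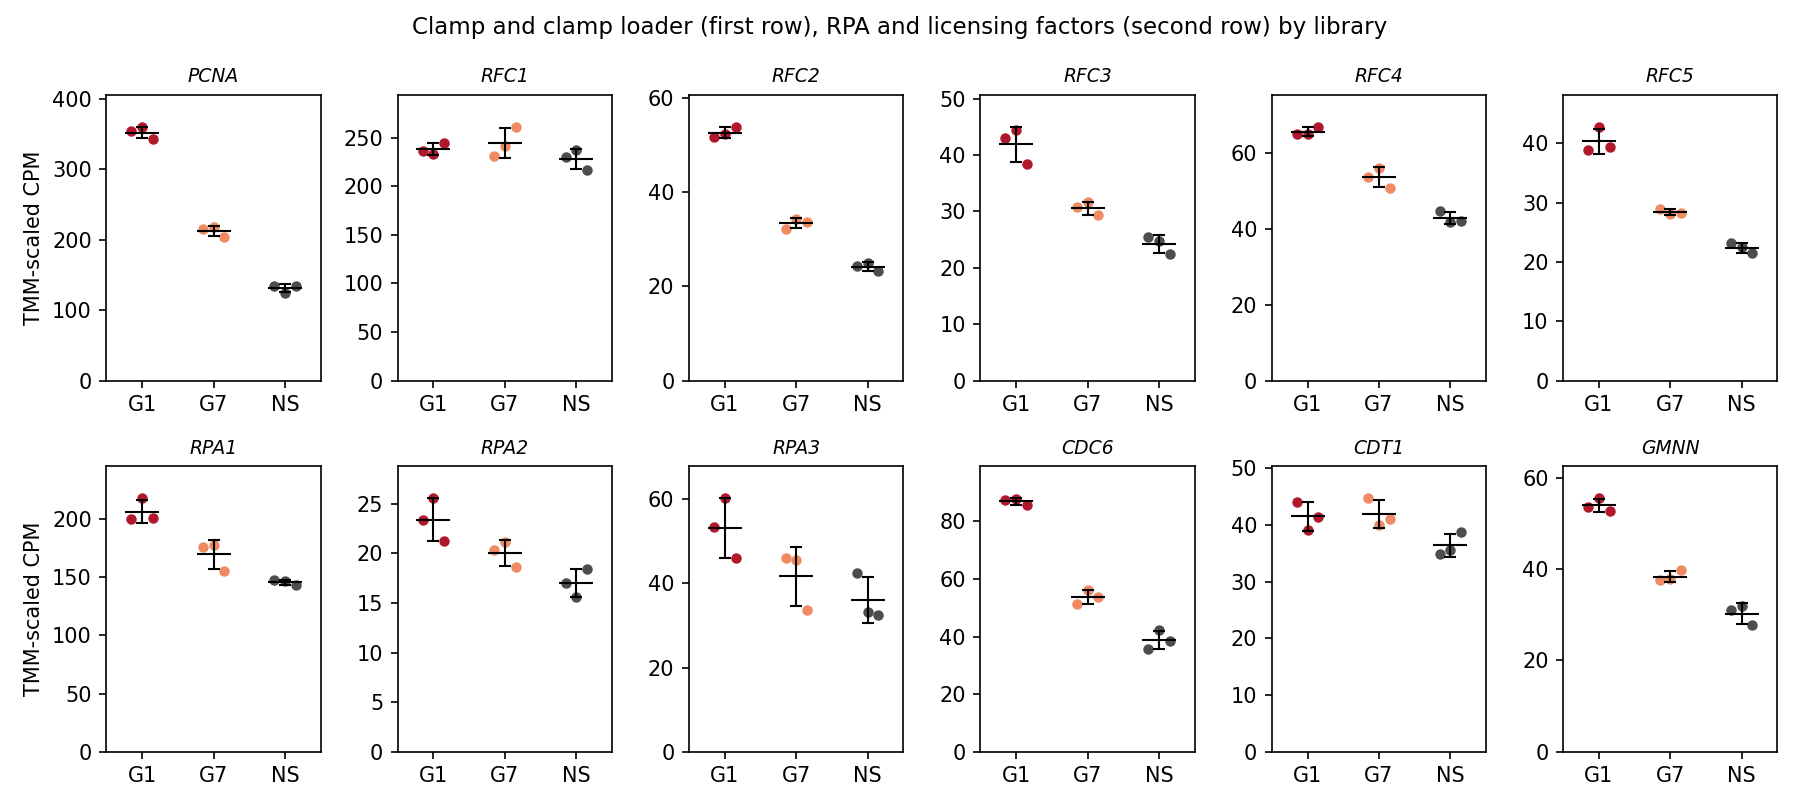
TMM-scaled CPM of the clamp and clamp loader genes (first row) and of the RPA and licensing genes (second row) in each library (points), with the mean and SD of each group (bars), for G1, G7 and NS. PCNA and CDC6 separate the 3 groups, the RFC1 points of all groups overlap, as do the CDT1 points of G1 and G7, and the RPA3 points spread widely within each group.

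The 3 RPA genes rose with G1 (median 0.50) and only RPA1 was called with G7 (0.22, edgeR adjusted p = 0.00558). RPA3, the smallest subunit, had 53.3, 60.1 and 45.9 CPM in G1 libraries, 45.9, 45.5 and 33.6 CPM in G7 libraries, and 42.4, 33.2 and 32.5 CPM in NS libraries. Its G7 and NS libraries overlapped, G7 replicate 3 standing with the lower NS libraries, and the changes were 0.57 ± 0.12 with G1 and 0.21 ± 0.12 with G7 (edgeR adjusted p = 0.215). Without G7 replicate 3, the library with the highest mitochondrial share, the G7 value of RPA3 was 0.35 and was called (edgeR adjusted p = 0.00606). It was also called at 0.21 with all libraries but no filter on low counts (edgeR adjusted p = 0.0151). RPA2, the middle subunit and the one phosphorylated under replication stress, had 23.3, 25.6 and 21.2 CPM in G1 libraries, 20.3, 21.2 and 18.6 CPM in G7 libraries, and 17.00, 15.6 and 18.4 CPM in NS libraries. It rose by 0.46 ± 0.09 with G1, and its G7 value was 0.23 ± 0.09 (edgeR adjusted p = 0.0693), which was called without NS replicate 3 (0.30) or G7 replicate 3 (0.28). Without G7 replicate 3, 43 members rose with G7. Of all genes 1965 of 13455 were then called higher, against 1735 of 13264 with all libraries.

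The fork protection genes keep helicase and polymerases coupled, and all 4 rose with G1 (median 0.89) and 3 with G7 (median 0.44). CLSPN, which carries the checkpoint signal to CHEK1 at stalled forks, had 34.9, 34.04 and 33.6 CPM in G1 libraries, 14.1, 14.7 and 16.03 CPM in G7 libraries, and 10.1, 12.6 and 10.5 CPM in NS libraries. It rose by 1.62 ± 0.08 with G1 and 0.43 ± 0.09 with G7, and the difference between the hairpins, 1.19 ± 0.08, was larger than that of any other member. TIMELESS and TIPIN travel with the fork as a pair. TIPIN had the smallest G1 change of the step, with 13.9, 15.97 and 17.01 CPM in G1 libraries, 10.4, 10.1 and 11.1 CPM in G7 libraries, and 8.99, 9.27 and 10.1 CPM in NS libraries. It rose by 0.72 ± 0.10 with G1, and its G7 libraries lay above the NS libraries by 0.16 ± 0.10 without being called (edgeR adjusted p = 0.289); the same-strand annotation RPL9P25 overlaps 21.0% of its exon bases. TIMELESS rose by 0.87 with G1 and 0.44 with G7, and WDHD1, which ties the polymerase alpha complex to the helicase, by 0.92 with G1 and 0.50 with G7.

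Of the genes that finish Okazaki fragments, LIG1 and DNA2 rose with both hairpins and FEN1 could not be tested. LIG1, the ligase that seals the fragments, had 60.7, 60.6 and 65.6 CPM in G1 libraries, 43.00, 41.4 and 45.3 CPM in G7 libraries, and 31.6, 33.9 and 34.2 CPM in NS libraries. It rose by 0.90 ± 0.06 with G1 and 0.38 ± 0.06 with G7, with no overlap between groups. DNA2, a nuclease and helicase that trims long flaps, had 31.9, 32.7 and 30.6 CPM in G1 libraries, 24.4, 23.5 and 21.6 CPM in G7 libraries, and 18.3, 16.9 and 17.02 CPM in NS libraries, and rose by 0.87 ± 0.07 with G1 and 0.41 ± 0.07 with G7. FEN1, the flap nuclease, had 4, 4 and 0 counts in G1 libraries, 1, 0 and 2 counts in G7 libraries, and 0, 0 and 2 counts in NS libraries. These counts are at or near the limit that 3 counts set, which is 0.139 to 0.227 CPM, so no level or direction was read for FEN1. An opposite-strand gene, TMEM258, overlaps 6.70% of the FEN1 exon bases and a same-strand gene, FADS2, 1.98%, and a pseudogene, FEN1P1, is annotated; their part in the low count was not tested.

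CAF-1 places histones on the new DNA behind the fork, and its subunits CHAF1A and CHAF1B rose with both hairpins (median 1.16 with G1 and 0.41 with G7). CHAF1B had 24.95, 25.03 and 26.2 CPM in G1 libraries, 13.4, 12.8 and 13.3 CPM in G7 libraries, and 10.1, 10.9 and 9.34 CPM in NS libraries. The groups did not overlap, with a rise of 1.33 ± 0.08 with G1 and 0.39 ± 0.09 with G7. CHAF1A, the large subunit, had 40.1, 39.3 and 41.1 CPM in G1 libraries, 26.9, 24.5 and 30.2 CPM in G7 libraries, and 20.03, 19.5 and 20.9 CPM in NS libraries and rose by 0.99 ± 0.07 with G1 and 0.44 ± 0.08 with G7.

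The log2 ratio between partners of a complex or step was computed in each library for 12 pairs, which were chosen with earlier results of these data known. With 3 libraries a group an exact permutation test cannot go below p = 0.1, so these ratios are described by overlap only, and no share over other gene pairs was computed. The ratio of ORC1 to ORC2 was -0.53 ± 0.02 in G1 libraries, -1.03 ± 0.07 in G7 libraries and -1.36 ± 0.03 in NS libraries (SD, n = 3), so ORC1 stood higher relative to ORC2 in G1 libraries than in the others. The ratio of CLSPN to TIMELESS was -0.998 ± 0.025 in G1 libraries, -1.76 ± 0.17 in G7 libraries and -1.76 ± 0.23 in NS libraries, where G7 and NS overlapped. The ratio of CHAF1A to CHAF1B was 0.66 ± 0.02 in G1 libraries, 1.04 ± 0.12 in G7 libraries and 0.999 ± 0.164 in NS libraries, the G1 libraries being lowest. CDC7 to DBF4, a kinase and its activator, and RPA3 to RPA1 overlapped between all groups.

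**Figure D5:**
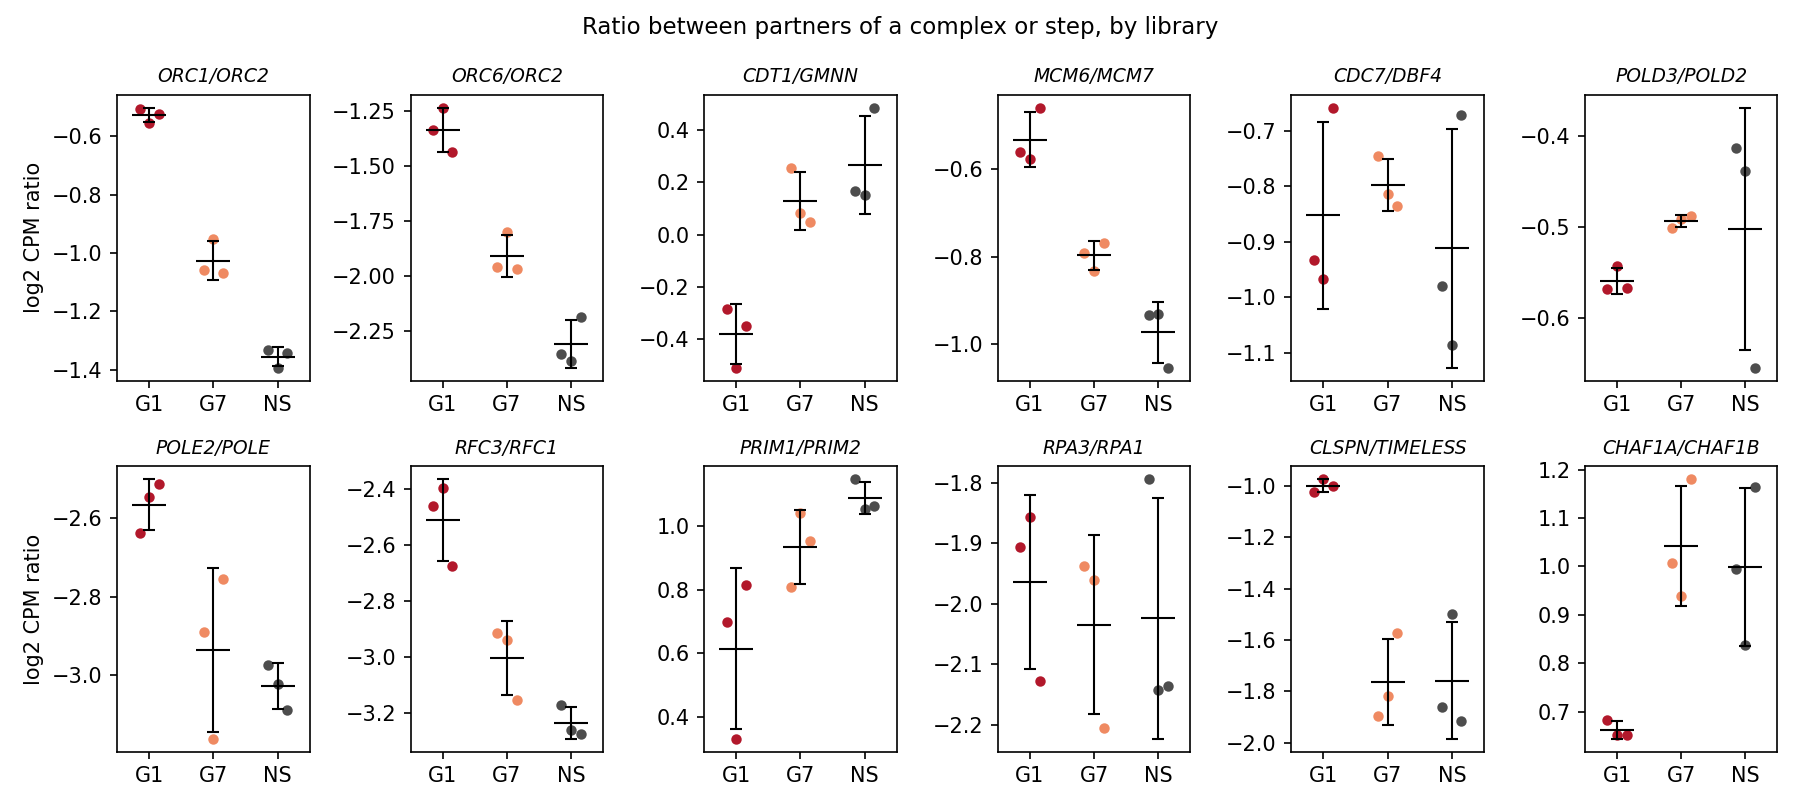
Log2 ratio of CPM between 2 partners of a complex or step in each library (points), with the mean and SD of each group (bars), for G1, G7 and NS in 12 pairs. ORC1/ORC2 descends across G1, G7 and NS, CDT1/GMNN is lowest in G1 at -0.38, and CLSPN/TIMELESS is high in G1 alone.

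A further 58 replication genes outside the module, of which 52 were tested, were counted in the same way. With G1, 36 rose, 6 fell and 10 were not called (median 0.34), against 30.4% of all tested genes called higher and 28.7% lower. With G7, 18 rose, 1 fell and 33 were not called (median 0.14), against 13.1% of all tested genes called higher and 9.64% lower. All 7 MCM and origin accessories rose with G1, led by MCMBP (0.86) and MCM8 (0.73), and so did all 4 alternative clamp loader genes, led by DSCC1 (1.17). Both tested accessory polymerase subunits rose, POLE3 by 0.56 and POLE4 by 0.45, and 4 of 5 tested genes of RNase H2 and the topoisomerases, led by RNASEH2B (0.64) and TOP2A (0.53). All 3 tested genes of histone handoff rose, ASF1B (1.38) and NASP (0.56) most. Of 6 helicase unloading genes 5 rose, among them LRR1 (1.28), which marks the helicase for removal, and VCP (0.50), which extracts it, and UBXN7 fell (-0.13). Of 5 tested PCNA partners and licensing ligase genes 3 rose, among them DTL (1.22), the receptor that targets CDT1 for destruction on PCNA, and SKP2 (0.49).

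Genes that act at damaged or stalled forks were called in both directions with G1, as were all tested genes, at 30.4% higher and 28.7% lower. Of 7 tested checkpoint genes 3 rose, led by the kinase CHEK1 (0.80), and RAD17 (-0.54), the loader of the checkpoint clamp, fell. Of 6 tested fork remodelling genes 3 rose, TONSL (0.87) and MMS22L (0.82) most, and ZRANB3 (-0.24) fell. Of 7 translesion genes 2 rose, MAD2L2 (0.34) and RAD18 (0.28), and 3 fell, POLI (-0.54) and POLK (-0.27) most. ZRANB3 was the one tested gene of these lists that fell with G7 (-0.27).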

How the data were processed

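RNA from 9 HCC827 libraries was sequenced after oligo-dT selection, with dUTP marking the second strand, per the labels' protocols. The deposited values are raw read counts per Ensembl gene that the authors did not normalize. TopHat2 2.1.0, HTSeq 0.6.0 and hg38 (GRCh38) are named, per the submitters' processing notes. Annotation release, strandedness of the counting and filtering of reads were not given in the sources used here, so reads of overlapping, antisense or duplicated genes may have been split or dropped.

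Symbols came from GENCODE release 29, which held 57055 of the 60675 rows, and all rows carry a gene identifier. The counts went into edgeR 4.0.16 (R 4.3.3) with filterByExpr, TMM scaling and 1 quasi-likelihood model of group means over all 9 libraries, whose common dispersion was 0.00217. G1 minus NS, G7 minus NS and G1 minus G7 were tested two-sided, and a call means a Benjamini-Hochberg adjusted p under 0.05 over all 13264 tested genes. Changes beyond 1.5-fold were called by glmTreat. CPM are counts relative to the TMM-scaled library size. A value after ± is the SD over 3 libraries for levels and ratios, and the standard error for log2 changes. That standard error was derived as the absolute log2 change divided by the square root of the quasi-likelihood F statistic. A count of 0 allows up to 3 counts, for counting error only.

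The members, steps and other lists were chosen with earlier results of these data known. Per-library values were given for the members with the largest and smallest G1 change in each step, those not called with G1, those lower with either hairpin and those with a larger change with G7 than with G1. Of each other list at most 2 rises and 2 falls were named. The 16 alternatives covered RLE and upper quartile scaling, no filter on low counts, DESeq2 1.42.0, only the 2 groups compared, no mitochondrially encoded genes, a replicate block and each library left out.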

Additional observations from a re-analysis of the deposited data

Results flagged for a closer look

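ORC3 and ORC4 stood out because the 2 hairpins moved their point values in opposite directions against NS and the difference between the hairpins was itself called. For ORC3 the log2 difference of G1 minus G7 was 0.32 ± 0.08 (edgeR adjusted p = 0.00228), with 0.31 against NS for G1 and -0.01 against NS for G7. For ORC4 it was 0.27 ± 0.06 (edgeR adjusted p = 0.00114), with 0.13 for G1 and -0.14 for G7, and every G7 library lay below every NS library. Neither G7 value was called, and that of ORC3 was 0.05 without NS replicate 2 and 0.08 without G7 replicate 1, so its sign rests on single libraries. The remaining subunits, ORC1, ORC2, ORC5 and ORC6, had positive values with both hairpins.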

How the results depend on the processing

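No member was called lower in any of the 3 comparisons under any of the 16 alternatives run. Leaving out each library in turn gave 48 to 51 members higher with G1 (median log2 change 0.86 to 0.89). It gave 38 to 43 with G7 (0.33 to 0.40) and 45 to 47 for G1 minus G7 (0.47 to 0.53). All genes called higher then numbered 3674 to 4257 with G1, 1350 to 1965 with G7 and 2684 to 3170 for G1 minus G7. In the main fit these numbers were 4031, 1735 and 3092. The other alternatives gave 48 to 50 members with G1, 38 to 42 with G7 and 45 to 47 for G1 minus G7. All genes called higher then numbered 3066 to 4319, 1397 to 1800 and 2346 to 3463. Upper quartile scaling moved the members' medians to 0.78 with G1, 0.36 with G7 and 0.44 for G1 minus G7. Leaving out the filter on low counts moved these medians to 0.90 with G1 and 0.53 for G1 minus G7. Members beyond 1.5-fold between G1 and G7 numbered 7 under upper quartile scaling, 6 by DESeq2 and 7 to 11 with a library left out. All genes called upward in that test numbered 96, 70 and 100 to 131 in the same order, against 130 in the main fit. The values that changed sign were all uncalled: RFC1 with G1 under upper quartile scaling (-0.023), CDT1 for G1 minus G7 without the filter (0.0089), and 4 values with a library left out. These were ORC3 with G7 (-0.059 without NS replicate 3 to 0.076 without G7 replicate 1), GINS4 with G7 (-0.073 without G7 replicate 2 to 0.63 without NS replicate 1), CDT1 for G1 minus G7 (-0.048 without G1 replicate 1 to 0.033 without G7 replicate 1) and RFC1 for G1 minus G7 (-0.078 without G7 replicate 1 to 0.011 without G7 replicate 3). The causes of these changes were not tested. Between G1 and G7, RPA2 and RPA3 lost and ORC5, PRIM1 and GINS4 gained a call under some alternatives. Adding the replicate number as a block gave 50 members higher with G1 and 41 with G7, PRIM2 being the gain. For G1 minus G7 it gave 46, with 12 beyond 1.5-fold. All genes called higher with the block numbered 4074 with G1, 1800 with G7 and 3165 for G1 minus G7, the last with 130 beyond 1.5-fold. The deviations of same-numbered libraries had correlations of -0.08 to 0.20. Correlations between differently numbered libraries were not computed, so whether the numbers pair the samples was not tested. Low depth limits GINS4, for which DESeq2 gave no adjusted p with G7, and FEN1.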

Other observations

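Among the further replication genes, POLD4, an accessory subunit of polymerase delta, RNASEH2A, the catalytic subunit of RNase H2, ATRIP, the partner of the checkpoint kinase ATR, and ASF1A, a histone chaperone, had no count in any of the 9 libraries. PCLAF, a PCNA-binding factor, had 1, 2 and 2 counts in G1 libraries, 1, 0 and 5 counts in G7 libraries, and 4, 2 and 3 counts in NS libraries. RTEL1, a helicase, had 3, 2 and 1 counts in G1 libraries, 5, 4 and 1 counts in G7 libraries, and 4, 1 and 3 counts in NS libraries. How the reads were counted is known only in part, so zeros and near-zeros here cannot be read as no expression, and the part of the counting in them was not tested. With FEN1 these were the 7 listed replication genes that could not be tested. Their partners were well sampled, among them RNASEH2B with 310 to 394 counts in G1 libraries, 246 to 322 counts in G7 libraries and 163 to 220 counts in NS libraries.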
